A study of Drosophila melanogaster with 2 samples.

Results

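The regions described here are mod(mdg4) peaks at divergent promoters, where neighbouring protein-coding genes start close together and are read away from each other. They were taken from the deposited peaks kept by an irreproducible discovery rate (IDR) threshold, called the thresholded list below, on the Drosophila melanogaster assembly dm6. A peak was kept when its summit lay within 500 bp of start sites of at least 2 genes on opposite strands, with the minus-strand start to the left of the plus-strand start. Of 6273 peaks on the chromosome arms X, 2L, 2R, 3L, 3R and 4, 484 (7.72%) met this rule, which used positions only and no signal. They made up 18.4% of the 2637 promoter peaks, those within 500 bp of any protein-coding start. The other 2153 promoter peaks are called one-direction peaks, since no such pair of starts was in reach of the summit. This class also takes in any summit near starts on opposite strands that face each other. The remaining 3636 arm peaks are called distal. Most of the 484 peaks (454) reached 2 genes, 28 reached 3 and 2 reached 4 or more.

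The data are chromatin immunoprecipitation with sequencing of whole larvae in a single group with 2 biological replicates, numbered 3 and 4. The larvae were at the wandering stage of the third instar, of unknown age, with males and females pooled, and came from 1 transgenic line that stably carries mod(mdg4) fused at its C terminus to GFP. Precipitation used an antibody against GFP, so forms of mod(mdg4) without the tag were not measured, and a whole larva mixes many tissues. Both replicates carry the same transgene, and no other group was analysed here, so no test over samples can be made. Results are therefore given as descriptions with their values in each replicate's own list, cut to its strongest 6294 peaks, as many as the thresholded list holds. Intervals are exact 95% binomial intervals over peaks, genes or gene pairs. They cover those numbers only, since neighbouring peaks and genes are not replicates of an experiment. The lists hold no read counts, so depth is unknown. Peak signal, the authors' strength of enrichment over a control library, has its own scale in each list and is compared within a list.

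mod(mdg4) is a BTB-domain protein with many splice forms, known for acting with su(Hw) at the gypsy insulator and with other insulator proteins. Divergent promoters are common in compact genomes such as that of the fly, and many serve broadly expressed genes for translation, mitochondria and protein turnover. In Drosophila such housekeeping promoters often carry the DNA replication-related element (DRE), bound by Dref, whose centre is also the binding sequence of the boundary protein BEAF-32, or Motif 1, bound by M1BP. Developmentally regulated promoters more often carry GAGA sequence, bound by GAGA factor, a TATA box or an initiator.

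The sequences between the starts show what lies under these summits. Each is the plus strand of dm6 from the RefSeq genome, written 5′ to 3′ from the base after the minus-strand start to the base before the plus-strand start, so the first gene named is read leftwards from its left end and the second rightwards from its right end. They were taken, in order of signal, from pairs on the arms shown here with the summit between starts 40 to 300 bp apart and no annotated exon there, so stronger peaks that missed these conditions are not printed. Capitals mark matches on either strand to the DRE (TATCGATA), the BEAF-32 element (CGATA, also inside each DRE on both strands), the Motif 1 core (GGTCACACT), an E-box (CAGCTG), the CTCF core (AGNNGGCGC) and the su(Hw) core (TGCATAC). A match is a string of letters and not a measured binding site.
The 4 strongest that met these conditions come first. They are Tcs5/CHMP2B (chr3L:5139396-5139618), a kinase of the tRNA-modifying KEOPS complex beside an ESCRT-III subunit, and bor/asun (chr3R:16264116-16264270), a mitochondrial ATPase beside an Integrator-associated protein. The others are Lon/PIG-F (chr3L:19612200-19612454), a mitochondrial protease beside an enzyme of GPI-anchor synthesis, and CG7601/CIA30 (chr3R:29736746-29736964), of which CIA30 is an assembly factor of respiratory complex I. The summits lie at bases 101, 41, 130 and 93.
Tcs5/CHMP2B: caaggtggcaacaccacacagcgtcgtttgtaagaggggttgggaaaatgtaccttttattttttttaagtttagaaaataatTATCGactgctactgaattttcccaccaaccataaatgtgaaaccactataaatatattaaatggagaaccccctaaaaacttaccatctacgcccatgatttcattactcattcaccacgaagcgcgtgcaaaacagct
bor/asun: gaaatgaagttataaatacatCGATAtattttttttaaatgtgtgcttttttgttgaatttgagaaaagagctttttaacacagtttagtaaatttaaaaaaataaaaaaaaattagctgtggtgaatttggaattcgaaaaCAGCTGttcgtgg
Lon/PIG-F: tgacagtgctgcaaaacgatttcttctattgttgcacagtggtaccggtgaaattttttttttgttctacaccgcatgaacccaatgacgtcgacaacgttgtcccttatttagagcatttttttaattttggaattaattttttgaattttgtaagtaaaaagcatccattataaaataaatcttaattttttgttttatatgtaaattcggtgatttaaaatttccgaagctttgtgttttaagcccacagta
CG7601/CIA30: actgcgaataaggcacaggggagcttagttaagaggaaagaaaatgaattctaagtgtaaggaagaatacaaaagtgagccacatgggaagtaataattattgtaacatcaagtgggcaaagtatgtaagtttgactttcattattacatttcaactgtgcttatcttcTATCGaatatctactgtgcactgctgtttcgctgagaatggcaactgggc
None of these 4 holds a DRE, and Lon/PIG-F holds none of the 6 marked strings. Rpn13/CtsL1, the strongest divergent peak of all and not printed, has a DRE within 100 bp of its summit. From 51.0% to 74.8% of the bases in the 11 sequences printed here are A or T.

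The 3 strongest with a DRE between the starts that met the same conditions follow, with the summit at bases 106, 97 and 75. They lie at RpS13/CSN8 (chr2L:8364663-8364854), a protein of the small ribosomal subunit beside a COP9 signalosome subunit, at Atat/Shc (chr3L:9426759-9427009), a tubulin acetyltransferase beside a signalling adaptor, and at CG10628/Dus3 (chr2L:19758616-19758878), of which Dus3 is a tRNA dihydrouridine synthase. Below them stand, again under these conditions, the strongest with the Motif 1 core between the starts, between Atg8a, a ubiquitin-like protein of autophagy, and BTBD9 (chrX:10768339-10768536, summit at base 146), and the strongest with the CTCF core there, between the protein kinase A subunit gene Pka-C3 and the phospholipase gene GXIVsPLA2 (chr3L:15954798-15955095, summit at base 216).
RpS13/CSN8: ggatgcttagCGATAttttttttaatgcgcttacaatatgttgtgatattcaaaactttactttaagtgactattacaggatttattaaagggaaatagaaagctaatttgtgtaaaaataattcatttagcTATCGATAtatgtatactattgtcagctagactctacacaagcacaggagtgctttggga
Atat/Shc: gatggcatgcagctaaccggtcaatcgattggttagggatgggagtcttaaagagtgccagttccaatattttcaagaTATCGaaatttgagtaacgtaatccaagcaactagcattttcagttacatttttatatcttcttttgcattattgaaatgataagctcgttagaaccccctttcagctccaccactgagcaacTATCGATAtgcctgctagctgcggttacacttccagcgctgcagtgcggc
CG10628/Dus3: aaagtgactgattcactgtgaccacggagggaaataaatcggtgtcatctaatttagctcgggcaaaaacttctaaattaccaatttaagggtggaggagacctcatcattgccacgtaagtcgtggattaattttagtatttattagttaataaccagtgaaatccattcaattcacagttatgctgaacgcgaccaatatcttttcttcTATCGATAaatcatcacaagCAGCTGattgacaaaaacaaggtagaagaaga
Atg8a/BTBD9: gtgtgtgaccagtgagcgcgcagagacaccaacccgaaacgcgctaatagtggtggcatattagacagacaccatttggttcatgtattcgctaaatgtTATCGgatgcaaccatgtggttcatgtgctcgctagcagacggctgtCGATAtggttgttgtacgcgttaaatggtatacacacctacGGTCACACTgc
Pka-C3/GXIVsPLA2: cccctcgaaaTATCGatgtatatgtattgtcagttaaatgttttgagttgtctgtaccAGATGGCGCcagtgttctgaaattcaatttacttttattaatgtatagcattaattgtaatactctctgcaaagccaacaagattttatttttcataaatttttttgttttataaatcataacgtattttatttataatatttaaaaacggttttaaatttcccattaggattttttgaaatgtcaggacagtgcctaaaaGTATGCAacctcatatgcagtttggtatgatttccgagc
The DREs of Atat/Shc, at base 202, and of CG10628/Dus3, at base 212, lie more than 100 bp from the summits. These peaks are thus counted below among those without a DRE near the summit. The CTCF core of the last sequence, at base 59, also lies more than 100 bp from the summit. The same sequence also holds a su(Hw) core, read on the other strand, at base 260.

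For contrast, 2 gene pairs without a peak in any list are shown, CG3740/hfw (chrX:1669298-1669569) and CG4553/MED28 (chr3R:25476916-25477002), of which MED28 encodes a Mediator subunit. They were picked for the most copies of the DRE, and each has 2. Among the 484 peaks, 2 had 2 copies within 100 bp of the summit, at stx/ras and CG8188/par-6. That window differs from the whole stretch between the starts, where the copies of the pairs without a peak were counted, so the counts cannot be compared.
CG3740/hfw: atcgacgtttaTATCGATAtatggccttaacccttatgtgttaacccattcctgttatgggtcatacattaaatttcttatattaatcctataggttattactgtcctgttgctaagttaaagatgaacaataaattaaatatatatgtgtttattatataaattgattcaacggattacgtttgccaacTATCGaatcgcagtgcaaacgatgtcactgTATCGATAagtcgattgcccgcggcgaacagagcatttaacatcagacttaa
CG4553/MED28: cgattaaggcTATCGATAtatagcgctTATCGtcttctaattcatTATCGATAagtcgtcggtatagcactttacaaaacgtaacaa
A DRE between divergent starts was thus found both with and without a peak in the lists searched, and the shares over all pairs are given further on.

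Peaks at divergent promoters were stronger than other promoter peaks, by a small margin that both replicates showed. Their median signal was 222, against 194 at one-direction and 176 at distal peaks. In replicate 3 the medians of the lists' own peaks were 134, against 120.0 and 109, and in replicate 4 they were 97.8, against 86.4 and 81.6. The ratio of the divergent to the one-direction median was 1.15 in the thresholded list and 1.12 ± 0.0105 over the replicates (SD, n = 2). The overlap of the classes was wide: the quartiles of the 484 peaks were 164 and 346, against 146 and 291 at one-direction peaks. Restricting the one-direction peaks to the outermost start of a gene left their median at 194.

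The higher median was also present among peaks at like distance from the nearest start. With the summit at most 100 bp from a start, the 271 divergent peaks had a median of 222 and the 685 one-direction peaks 191. Between 101 and 250 bp the medians were 230.0 for 195 peaks and 202 for 850. Beyond that, up to 500 bp, they were 207 for 18 peaks and 185 for 618. In each of these distance classes the divergent median was also higher in both replicates. Of the strongest 10% of arm peaks, 68 were divergent, which is 14.0% of the divergent peaks, against 11.1% of one-direction and 8.80% of distal peaks. The highest signal was 1214 at a divergent pair, 1999 at a one-direction promoter and 2429 at a distal site.

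**Figure D1:**
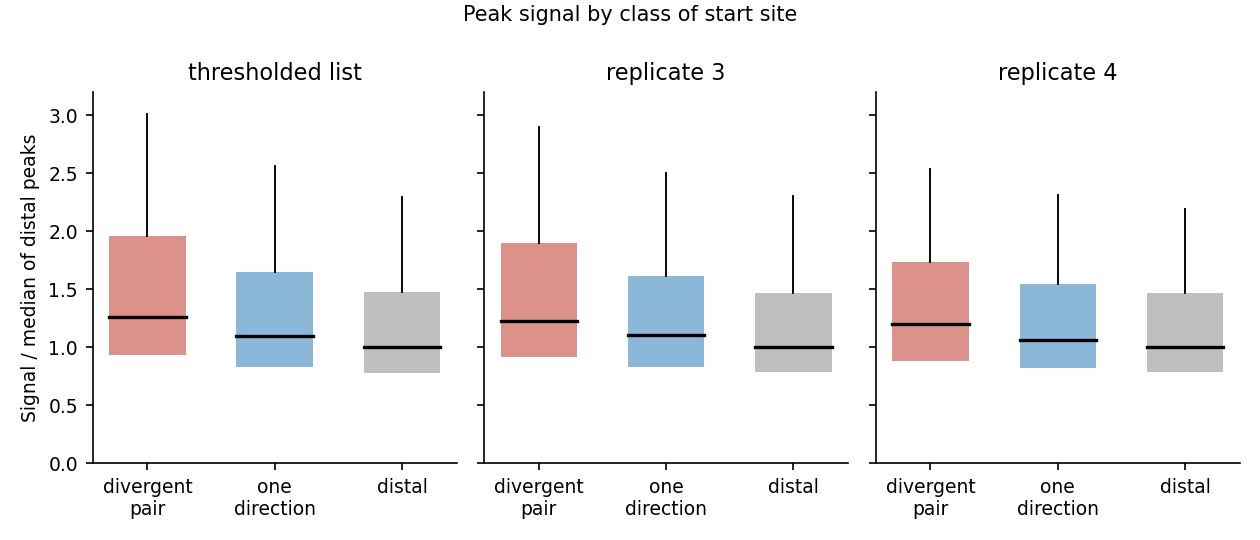
Peak signal divided by the median of distal peaks (y axis) in the thresholded list and in the strongest peaks of each replicate; boxes run from the lower to the upper quartile, black lines are medians and thin lines reach the 90th percentile. In each of the 3 panels the divergent-pair median lies above that of one-direction promoters, at 1.26, 1.23 and 1.20 times the distal median.

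The 20 strongest divergent peaks lay at genes of varied roles. The strongest stood at Rpn13, a ubiquitin receptor of the proteasome, and CtsL1, a cathepsin L protease, with a signal of 713 in replicate 3 and 498 in replicate 4, and 1214 in the thresholded list. The next was at imd, the adaptor of the Imd immune pathway, and Dp1, a protein with KH domains, with 780.5 and 429, and 1208. Tcs5/CHMP2B had 660.4 and 540.3, and 1196. Pex11ab, a peroxisomal protein gene, and CG8320 had 692 and 466. At CG1360 and scra, the gene of anillin, which acts in cytokinesis, the values were 643 and 454. These peaks were high in both replicates, at places 47 to 80 of replicate 3 and 54 to 99 of replicate 4, where places also count mitochondrial peaks.

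Further down the 20 strongest, Stt3A, a subunit of the oligosaccharyltransferase, and bves, a Popeye-domain gene, had 638 and 447 in replicates 3 and 4. The bor/asun peak had 581 and 493. Chro, the gene of the chromodomain protein Chromator, and Ssl1, a subunit of the transcription factor TFIIH, had 693 and 388. At Oda, the gene of ornithine decarboxylase antizyme, and SmD3, a spliceosomal core protein, the values were 575 and 456. Lon/PIG-F had 633 and 364, CG7601/CIA30 had 569 and 377, and RpS13/CSN8 had 499.8 and 376. Dref, the gene of the DRE-binding factor itself, and its neighbour RpL13, a large-subunit ribosomal protein gene, had 460.0 and 356. The others, with signals of 839 to 1053 in the thresholded list, were CG11309/CG7632, CG7582/Gycalpha99B with a guanylate cyclase subunit, CG2790/CG12851, CG3437/CG3552, CG13390/CG17294, CG31224/CstF64 with an mRNA cleavage factor, and Ugt316A1/Sfxn2. All 20 were matched in both replicates, at places 47 to 211 of replicate 3 and 54 to 217 of replicate 4. In 14 of the 20 the summit lay between the starts, and 2 of the 20 had a DRE within 100 bp of it.

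High signals were few. In the thresholded list 12 of the 484 peaks exceeded 1000 and 54 exceeded 500, and the lowest value was 113. In the replicates' own lists, 476 peaks overlapped a peak of replicate 3, with signals of 32.9 to 780.5 and a median of 140.4. The 477 matched in replicate 4 had 17.0 to 540.3, with a median of 101. The lowest replicate value belonged to the peak between the cation channel gene pyx and CG33229, with 153 in replicate 3 and 17.0 in replicate 4.

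Divergent peaks were shared between the replicates more often than other peaks. Of the 484, 384 (79.3%, interval 75.5 to 82.9%) overlapped, by at least 1 bp, the strongest 6294 peaks of both replicates, 96 those of 1 replicate only and 4 those of neither. The share was 74.5% (72.6 to 76.3%) at one-direction and 67.4% (65.9 to 69.0%) at distal peaks. Median signal followed the same order of classes, and its part in these shares was not tested. Among the 469 matched in both full lists, 427 (91.0%) had replicate signals within 2-fold after scaling each list to its median, against 89.8% in both other classes. The SD of the log2 ratio was 0.61, against 0.62 at one-direction and 0.61 at distal peaks. Spearman's rho of the replicate signals was 0.710 over these 469 peaks and 0.661 over 2118 one-direction peaks, a description over peaks that share the same libraries.

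**Figure D2:**
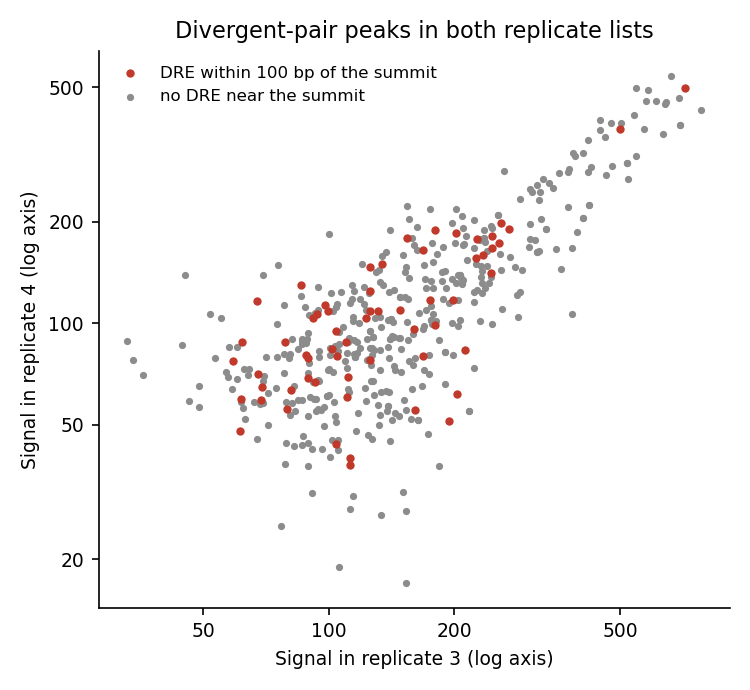
Signal of the 469 divergent-pair peaks found in both replicate lists, with replicate 3 on the x axis and replicate 4 on the y axis (both log scales, arbitrary units of each list); red points have a DRE within 100 bp of the summit. The points follow a band with rho of 0.710, and the red points lie along its length.

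Summits lay mainly in the short stretch between the starts. In 386 of 484 peaks (79.8%, 75.9 to 83.2%) the summit was between the closest minus-strand and plus-strand starts, and the replicates' own lists gave 78.0% and 77.4%. The stretch between the starts made up 39.5% of the sequence in which a summit would meet the rule at these pairs. Taken over all divergent pairs, summits numbered 606 per Mb between the starts and 104 per Mb in the flanks that also meet the rule, a ratio of 5.81, with 5.20 in replicate 3 and 5.11 in replicate 4. Of the remaining peaks, 51 lay beyond the start of the minus-strand gene and 47 beyond that of the plus-strand gene.

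Within the pair the summits lay nearer to the middle than even placement would put them. Of the 386 summits between the starts, 248 (64.2%) lay in the middle 50% of the stretch open to them, where even placement gives 50%, and the replicates gave 62.1% and 59.1%. The median distance from the midpoint over all 484 was 70 bp, and 324 summits (66.9%) were within 100 bp of it, with 64.3% and 63.3% in the lists of replicates 3 and 4, values that the narrow spacing of most pairs also limits. The summit was nearer to the minus-strand start in 220 peaks and to the plus-strand start in 264, with 255 and 313 in replicate 3 and 275 and 318 in replicate 4. It was nearer to the longer gene of the pair in 236 of 483 peaks (48.9%, 44.3 to 53.4%), where 1 peak could not be counted. By annotation 330 summits (68.2%) lay between genes, against 48.2% of one-direction summits, and 63 (13.02%) lay in introns, against 32.2%. Another 82 (16.9%, against 14.1%) lay in a 5′ UTR, 6 in noncoding exons, 2 in coding exons and 1 in a 3′ UTR.

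**Figure D3:**
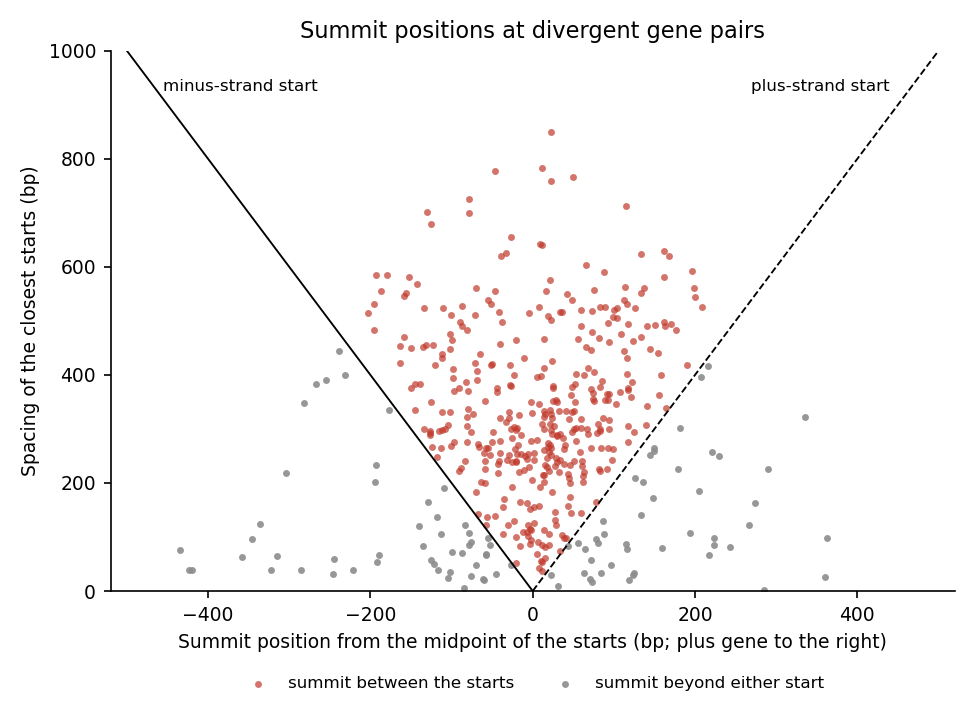
Position of each of the 484 summits from the midpoint of the closest starts (x axis, bp, plus-strand gene to the right) against the spacing of those starts (y axis, bp); the solid and dashed lines mark the minus-strand and plus-strand starts. Most points (386, red) lie between the lines, and grey points beyond either start are most frequent at narrow spacings.

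The starts of the pairs were 1 to 849 bp apart at these peaks, with a median of 294.5 bp and quartiles of 169 and 417 bp. The closest were at Atg6, the fly Beclin 1 of autophagy, and Pisd, a phosphatidylserine decarboxylase, 1 bp apart, with signals of 78.0 in replicate 3 and 81.0 in replicate 4. CG3032 and CG4593 start 6 bp apart (139.5 and 79.1), and CG1360 and scra start 10 bp apart. In these 3 narrow pairs the summit lay beyond a start. The widest were the autophagy gene Atg16 and Prtl99C, 849 bp apart (154 and 101), pyx and CG33229, 783 bp, and the glycosyltransferase genes Ugt302K1 and Ugt302E1, 777 bp (81.5 and 58.2). In these 3 the summit was between the starts, as the rule requires at such widths. Across the 484 peaks spacing and signal had a Spearman's rho of -0.11, over peaks that share both libraries.

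The rule's limit of 500 bp cut through a continuous range. Just inside it were Ir60e/CG13585, with the farther start 497 bp from the summit and a signal of 151, and CG6051/Men-b, with 493 bp and 141. Just outside were CG32767/CG15465 at 501 bp with 175, Tsp42Eq/Tsp42Er at 504 bp with 153, and shg/cpa, the genes of E-cadherin and an actin-capping protein subunit, at 511 bp with 541. The 48 peaks whose farther start was 401 to 500 bp away had a median of 202, and the 59 that missed the rule by at most 100 bp had 185.

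Set against the annotation, divergent pairs with a peak were a minority. Of 2667 pairs of protein-coding genes with starts at most 1000 bp apart, 480 had such a peak, which is 18.0% (16.6 to 19.5%), and the lists of replicates 3 and 4 gave 20.3% and 22.6%. In the full pooled list, which holds 29999 peaks and includes background calls, 683 pairs (25.6%) had a summit, and 1984 had none. Both replicate lists named 398 pairs, and 364 of the 480 were among them, while 6 of the 480 were in neither. Counted by gene, 926 of the 5052 genes in a divergent pair (18.3%, 17.3 to 19.4%) had a peak at the pair, and with peaks at their other starts 23.5% (22.3 to 24.7%) had a promoter peak. Among the 8893 genes in no such pair the share was 16.05% (15.3 to 16.8%), and among all 13945 protein-coding genes it was 18.7%. The share at the pair, 18.3%, is near that of all genes, but these shares are not counted alike. A peak counts for every gene with a start within 500 bp, so a peak at a pair counts for both of its genes. The shares of genes in no pair and of all genes take peaks at any start. The part of this counting in the differences was not tested.

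Per length of sequence the difference was larger. Sequence that meets the rule covers 1.62 Mb and held 298 summits per Mb, against 157 per Mb in 13.7 Mb of other sequence within 500 bp of a start and 30.7 per Mb in 119 Mb of distal sequence. The ratio of divergent to one-direction density was 1.90, with 2.23 in replicate 3 and 2.21 in replicate 4 (mean 2.22 ± 0.0179, SD, n = 2). Sequence that meets the rule lies by construction close to starts of 2 genes, and 56.0% of its summits were within 100 bp of a start, against 31.8% of one-direction summits. The part of distance from a start in the density was not tested.

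The share of pairs with a peak varied with the spacing of the starts. In the thresholded list it was 18.2% at up to 100 bp, 15.97% at 101 to 200 bp, 22.7% at 201 to 300 bp, 24.8% at 301 to 400 bp and 22.1% at 401 to 500 bp. It was 14.9% at 501 to 700 bp and 3.23% at 701 to 1000 bp. The sequence per pair in which a summit can meet the rule at the closest starts shrinks with spacing. It was 0.944 kb at up to 100 bp, 0.655 kb at 301 to 400 bp, 0.410 kb at 501 to 700 bp and 0.161 kb at 701 to 1000 bp. Divided by this length, pairs with a peak numbered 192.6, 187, 304, 378, 399, 364 and 200.3 per Mb from the narrowest to the widest class. These pairs include those with a peak at other starts of the genes, whose sequence this length leaves out. In replicate 3 the shares were 20.5%, 17.9%, 26.01%, 26.5%, 27.3%, 16.6% and 3.23%, and in replicate 4 23.3%, 24.9%, 28.4%, 31.5%, 24.7%, 15.7% and 3.23%. The class of 401 to 500 bp was thus above that of 101 to 200 bp in the thresholded list and replicate 3 and slightly below it in replicate 4. Per Mb, the classes between 201 and 700 bp were above the narrower ones and the widest in all 3 lists.

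**Figure D4:**
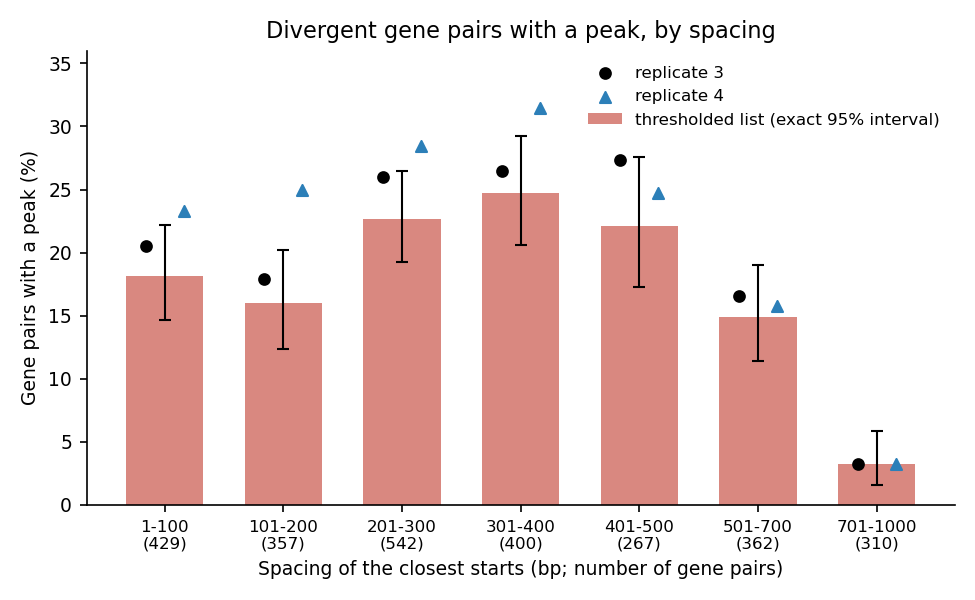
Percentage of divergent gene pairs with a peak (y axis) by the spacing of the closest starts in bp (x axis, number of pairs in brackets); bars and error bars give the thresholded list with exact 95% intervals, black circles replicate 3 and blue triangles replicate 4. In the thresholded list the share is highest at 301 to 400 bp (24.8%), and it is lowest at 701 to 1000 bp (3.23%) in all 3 lists.

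Pairs with and without a peak differed in a few other respects. The longer gene of the pair had a median length of 5096 bp in pairs with a peak and 3722 bp in pairs without, and the shorter gene 1699.5 and 1531 bp. Pairs with a peak had 3.41 annotated start sites on average, against 2.86. The share with a peak was 12.5% (10.7 to 14.4%) among the 1265 pairs with 2 starts, 19.9% with 3, 24.5% with 4 or 5 and 35.9% (27.7 to 44.9%) among 128 pairs with 6 to 17. More starts also put more sequence within reach of the rule, and the part of this was not tested. By arm the share was 23.6% (19.96 to 27.4%) on 3L, 18.4% on X, 18.3% on 2L, 15.8% on 2R and 15.2% (12.6 to 18.1%) on 3R. Replicate 3 and replicate 4 gave 24.9% and 26.6% on 3L. On 3R they gave 18.4% and 23.9%, and 1 of 11 pairs on chromosome 4 had a peak.

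In 35 pairs more than 1 summit met the rule. In 29 of them the summits matched fewer peaks than that in both replicates, so the replicates' own lists did not resolve them. The most summits were 3 at imd/Dp1, with 1208 at one set of starts and 579 and 456 at another set to the right, and these last matched the same peak of each replicate. At CG3104/RpS21, with a protein gene of the small ribosomal subunit, the 2 summits had 511 and 499, and they matched 1 peak of replicate 3 and 2 of replicate 4. At Brf, a subunit of the RNA polymerase III factor TFIIIB, and sds22, a phosphatase regulator, the signals were 465 and 131. At CG4313 and usp, a subunit of the ecdysone receptor, they were 418 and 229, and at both of these pairs 1 peak of each replicate covered the 2 summits.

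Sequence within 100 bp of the summits carried housekeeping promoter motifs more often, and GAGA sequence less often, than at one-direction promoters. The DRE (TATCGATA) was present at 61 of 484 summits (12.6%, 9.78 to 15.9%), against 5.25% (4.34 to 6.28%) at one-direction and 0.578% at distal summits. The replicates' lists gave 11.6% against 5.08% and 12.96% against 7.05% of one-direction summits. Read backwards as a control for base composition, the DRE matched 0.620% of the divergent windows. The Motif 1 core (GGTCACACT) was present at 27 summits (5.58%, 3.71 to 8.01%), against 3.44% (2.71 to 4.30%) at one-direction and 0.193% at distal summits, with 1.24% backwards. In the replicates it was at 5.63% against 2.70% and at 6.23% against 3.83%. The E-box (CAGCTG) was at 15.3% (12.2 to 18.8%), against 12.2% (10.9 to 13.7%) and 7.26%. The BEAF-32 element (CGATA), which every DRE contains, was at 51.7%, against 33.1% and 23.05%, but read backwards it matched 32.4% of divergent windows. A window at a divergent pair can hold parts of 2 promoters, so these shares per window are not shares per gene. More divergent than one-direction summits lay within 100 bp of a start (56.0% against 31.8%). The part of this distance in the motif shares was not tested.

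GAGA sequence (GAGAGAG, which reads the same backwards) was at 13 divergent summits (2.69%, 1.44 to 4.55%), against 10.9% (9.58 to 12.3%) at one-direction and 5.94% at distal summits. Replicate 3 gave 2.29% against 9.73% and replicate 4 3.37% against 11.7% of one-direction summits. The su(Hw) core (TGCATAC) was at 14 summits (2.89%, 1.59 to 4.81%), against 4.74% (3.88 to 5.72%) and 8.80% (7.90 to 9.77%) at distal summits. It was lower at divergent than at distal summits in both replicates, at 2.64% against 9.10% and 3.03% against 8.84%. The CTCF core (AGNNGGCGC) was at 3.72% (2.22 to 5.81%) of divergent, 3.48% of one-direction and 3.99% of distal summits. The TATA string (TATAAA) was at 45.5% against 32.0%, but its reversed form at 60.1% against 46.0%, and the divergent windows were richer in A and T, with a median GC content of 33.8% against 36.8%. The initiator letters (TCAGT) were at 25.4% against 31.5%, and the Pho core (GCCAT) at 23.1% against 25.4%.

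**Figure D5:**
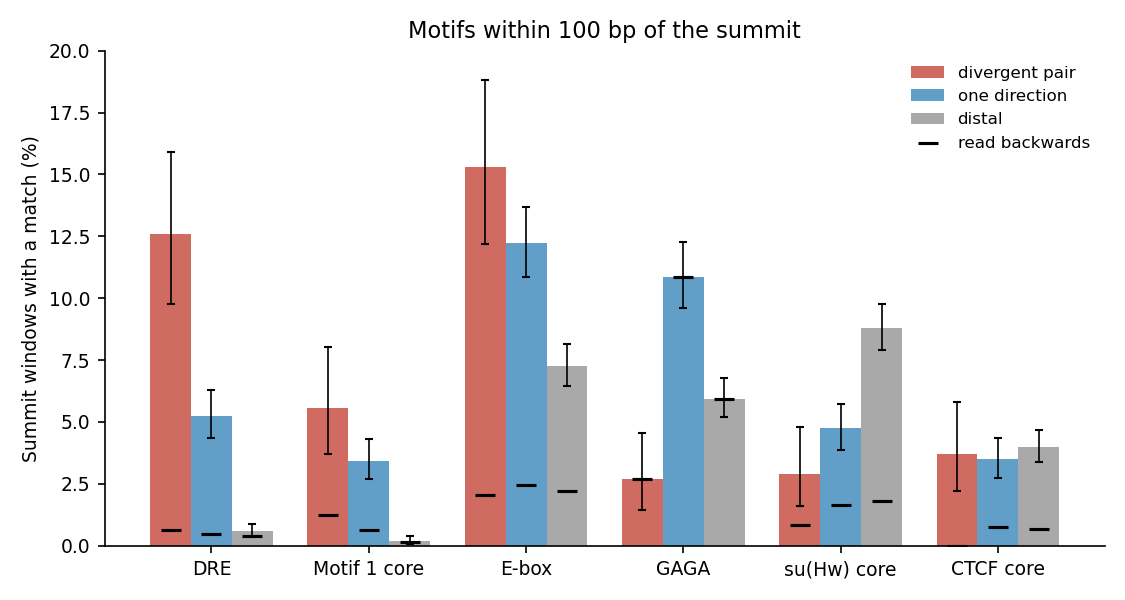
Percentage of windows within 100 bp of a summit that hold each motif (y axis) at divergent-pair, one-direction and distal peaks of the thresholded list; error bars are exact 95% intervals and black dashes the motif read backwards. The DRE is at 12.6% of divergent against 5.25% of one-direction summits, and GAGA sequence at 2.69% against 10.9%.

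The motif contrasts were also present at promoters as such, with or without a peak. In windows of 150 bp to each side of the midpoint of all 2667 pairs the DRE was found in 13.3%, against 5.46% of 8758 windows at the outermost starts of genes in no pair, where starts shared by several genes count once. The Motif 1 core was in 7.72% against 3.57%, the E-box in 19.6% against 16.1%, and GAGA sequence in 3.11% against 6.30%. Among the pairs, a DRE went with a  higher share of peaks: 81 of 356 pairs with one had a peak (22.8%, 18.5 to 27.5%), against 17.3% (15.7 to 18.9%) of pairs without. Replicates 3 and 4 gave 26.7% against 19.3% and 30.3% against 21.4%. The reversed DRE, in 25 pairs, went with 20%. A higher share was not particular to the DRE. With the BEAF-32 element 20.5% of pairs had a peak, against 15.0% without, and with the E-box 22.0% against 17.0%. Both were also higher in each replicate. With the Pho core it was 15.5% against 19.5%, also lower in each replicate. The reversed forms of these 3 strings went with 17.2%, 22.0% and 20.5%. By spacing, the DRE was in 16.5 to 22.8% of pairs in the classes up to 400 bp. It was in 2.90 to 3.59% in the wider classes. Starts more than about 300 bp apart lie outside these windows, also in the class of 301 to 400 bp, which had 16.5%. Pairs more than 500 bp apart also had the lowest shares with a peak, as given above. The part of spacing in the difference between pairs with and without a DRE was not tested. Among genes in no pair the shares were 26.6% with a DRE and 15.3% without.

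For the Motif 1 core and GAGA sequence, pairs and other genes did not show the same values. Of the 206 pairs with the Motif 1 core 16.5% (11.7 to 22.3%) had a peak, against 18.1% of pairs without, while among genes in no pair the shares were 34.2% and 15.2%. The reversed string, read as a control, went with 34.7% there. Of the 83 pairs with GAGA sequence 20.5% had a peak, against 17.9% without, and replicates 3 and 4 went opposite ways, with 15.7% against 20.5% and 25.3% against 22.5%. Among genes in no pair the shares were 31.3% and 14.9%. These peaks of genes in no pair may lie at any start of the gene, and the difference between pairs and other genes was not tested. The CTCF core, rare in pairs, was in 53 of them, of which 30.2% (18.3 to 44.3%) had a peak, against 17.8% without, and the replicates gave 32.1% each against 20.1% and 22.4%.

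Divergent summits with a DRE or a Motif 1 core had lower median signals than the other divergent summits. The 61 summits with a DRE had a median of 208, against 224 for the other 423. In replicate 3 the medians were 126 and 143, and in replicate 4 98.5 and 102. With the Motif 1 core the median was 205, against 224 without. The 112 summits with a Pho core had 250.1, against 217 without, with 159.7 against 139 in replicate 3 and 109 against 98.3 in replicate 4. The 18 summits with a CTCF core had 260.3, against 222. Among the 114 divergent summits with a DRE within 250 bp the median distance to it was 91.0 bp and 28.1% were within 50 bp, against 60.5 bp and 39.8% at 176 one-direction summits. A DRE or a Motif 1 core was near 85 summits (17.6%) and both were near 3, at Gar1/CG34396, Dhdds/RpS14a and Atac3/Ptpmeg. None of the DRE, Motif 1, su(Hw) and CTCF cores was near 370 of the 484.

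The genes at these peaks were sorted by role into 16 lists, and the share of each list's pair genes with a peak at the pair is set beside the 18.3% of all genes in pairs. Genes of translation and mitochondria are often arranged in divergent pairs: 55 of 92 cytoplasmic ribosomal protein genes are, 58 of 73 mitochondrial ribosomal protein genes and 34 of 38 splicing genes, against 5052 of all 13945. Of the 55 cytoplasmic ribosomal protein genes 13 (23.6%) had a peak at the pair, and 19 and 21 did in replicates 3 and 4. Of all genes in pairs, 20.8% and 22.6% did in these replicates. RpS13/CSN8, Dref/RpL13 and CG3104/RpS21 were the strongest, the last with 383 and 167 in replicates 3 and 4, while RpL10Ab, which pairs with CG5946 and CG11597, had none. Of the 37 in no pair 16 had a promoter peak, beside 16.05% of all genes in no pair.

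Most mitochondrial ribosomal protein genes (58 of 73) are in divergent pairs. Of the 58, 14 (24.1%, 13.9 to 37.2%) had a peak there, with 17 and 18 in the replicates, and 1 had a promoter peak elsewhere. None of the 15 outside pairs had one, beside 16.05% of all genes in no pair, and no test was made of this small count. The strongest were mRpL23/CG9004 (419 in replicate 3 and 350.3 in replicate 4), mRpS2/Mon1 (239.6 and 148) and mRpL24/betaggt-I (223 and 167). CG9626/mRpL1 and HtrA2/mRpL11 had none. Of 44 oxidative phosphorylation genes in pairs 6 (13.6%) had a peak, led by glo/COX5A (198 and 135) and IFT52/COX5B (151 and 159), whose COX genes encode cytochrome c oxidase subunits. ATPsynCF6/Sec13 and cdi/ATPsynD had none.

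In the other lists of protein and RNA metabolism the counts were as follows. Translation factor genes had 5 of 26, among them eIF4EHP/CG18428 (420.0 and 224), CG34015/eIF4H1 (231 and 147) and ERp60/eEF1alpha1 (159.7 and 170.0). Aminoacyl-tRNA synthetase genes had 4 of 23, with Plp/GlyRS at 140.1 and 89.5 and AsnRS/DCTN6-p27 at 87.9 and 112. Splicing genes had 5 of 34, with snRNP-U1-C/gukh at 148 and 90.5 and U2af50/PIG-Q at 153 and 55.2. Proteasome genes had 2 of 26, Rpn13/CtsL1 and Rpn6/ave (154 and 223), and chaperone genes 2 of 15, mRpS21/Droj2 (105 and 45.0) and Oda/CCT5 (86.2 and 59.3). COP9, exosome and coat genes had 8 of 35 (22.9%), with Sec61alpha/Daxx, of the translocation channel of the endoplasmic reticulum, at 406 and 319.8 and Arf1/CG11109, a GTPase of vesicle coats, at 319.6 and 232. Vacuolar proton pump genes had 3 of 14, Vha44/Hmgs (236 and 189), Vha100-2/Vti1b (283 and 121) and Vha55/Snx3 (179 and 188).

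Among genes of the nucleus, those of replication and the cell cycle had 8 of 33 (24.2%), led by Bub3/Cap-D2, a spindle checkpoint and a condensin gene (134 and 150), twe/CG4935, with a meiotic Cdc25 phosphatase (128 and 90.9), and Orc4/CG12849, with an origin recognition subunit (124 and 89.8). Insulator and architectural protein genes had 4 of 19, among them Chro/Ssl1, Dref/RpL13 and Bub3/Cap-D2, while MED7/Cap-H2 and CG13326/Cap-G had none. Mediator and general transcription genes had 5 of 56 (8.93%, 2.96 to 19.6%), with 140up/Polr2B at 271 and 157, Polr3F/PyK at 209.7 and 191 and elm/MED27 at 227 and 126. Polycomb and trithorax group genes had 1 of 18, fs(1)h/mys (55.1 and 104). Of the 16 in no pair 9 had a promoter peak, beside 16.05% of all genes in no pair. Chemoreceptor and cuticle genes are seldom in pairs (26 of 179 and 12 of 97). Of these, 2 and 2 had a peak, at CG11594/Gr64a (157 and 52.1), Ir60e/CG13585 (105 and 83.0) and Lcp2/Lcp3 (308 and 244), larval cuticle protein genes that form 1 pair. In the thresholded list the exact 95% interval of each of the 16 gene lists included 18.3%, so none is called apart from pair genes at large there. No intervals were made for the replicate counts of the gene lists, which stand beside 20.8% and 22.6% of all genes in pairs.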

How the data were processed

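mod(mdg4)-GFP was measured by chromatin immunoprecipitation and sequencing in 2 biological replicates; chromatin was sonicated to 200 to 800 bp, per the labels. As deposited by the authors, there are dm6 lists of calls, background included, for either replicate and for the pooled reads, made against a control library (29999 peaks each), and 6294 peaks kept at the optimal IDR threshold. The caller and the threshold were not given in the sources used here. As for units, the signal of a peak is the authors' strength of enrichment over the control, on the scale of its list. The deposited -log10 q of each peak was read but gave no result. The deposited offset of the summit placed each peak. The control library and the dm3 lists were not used here, and 0 columns of per-sample values were left unmapped.

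Start sites were all transcript starts of protein-coding genes of Ensembl release 115, and a pair was taken by its closest starts. The replicate signal of a peak is that of the strongest peak overlapping it by at least 1 bp, and motifs were searched on both strands within 100 bp of summits. Scripts ran under Python 3.11.15 with pandas 2.3.3, NumPy 2.4.6, SciPy 1.17.1 and matplotlib 3.10.9, and were tested on simulated starts, summits and motifs. No test over samples was possible with 1 group of 2. The replicates are separate biological samples per the labels, and depth is unknown.

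Peaks, gene lists and motifs were chosen with earlier results of these data known, and the cuticle, general transcription and insulator lists lost genes of other roles after values were seen. Named pairs are the 20 strongest, the 3 narrowest and 3 widest, up to 3 strongest and up to 2 without a peak per list, pairs with 2 or more summits, and those at the limit of the rule. Sequences shown, and peaks with both the DRE and Motif 1 or with 2 copies of the DRE, were chosen after their values were seen. Alternatives were other distances to the start, outermost starts only, stricter and looser lists, each replicate alone, other motif windows and a summit match between replicates.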

Additional observations from a re-analysis of the deposited data

How the results depend on the processing

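Of 59 alternative values for 8 results, 15 stayed within the spread of the replicates or 1.5 times the main count and 44 moved beyond it, and none reversed: every density and signal ratio stayed above 1. With both starts within 250 bp of the summit there were 275 peaks, 14.2% of pairs had one, the density ratio was 2.50, the signal ratio 1.25, and 79.3% lay between the starts, 13.8% with a DRE and 6.18% with the Motif 1 core. At 1000 bp these were 748, 20.2%, 1.51, 1.07, 70.3%, 10.4% and 4.14%. With outermost starts only, the density ratio was 1.95, the signal ratio 1.14 and the share between the starts 81.3%. Among the stronger peaks, split at the median signal of the list, there were 317 peaks at 12.1% of pairs, with ratios of 2.35 and 1.06, 80.4% between the starts, 5.05% with the Motif 1 core and 93.1% strong in both replicates. Taking the strongest pooled peaks, 2 times as many, gave 22.6% of pairs, ratios of 1.55 and 1.32, 78.6% between the starts and 64.6% strong in both replicates. Using each replicate alone gave 20.3 to 22.6% of pairs, density ratios of 2.21 to 2.23, signal ratios of 1.12 to 1.13, 77.4 to 78.0% between the starts, 11.6 to 12.96% with a DRE and 5.63 to 6.23% with the Motif 1 core. Motif windows of 50 bp gave 6.20% and 2.69% for the DRE and the Motif 1 core, and windows of 200 bp gave 20.9% and 10.95%. Requiring replicate summits within 100 bp lowered the share in both replicates to 70.5%. The causes of these moves were not tested, beyond the changed distances, windows and list sizes themselves. No paired analysis was possible because there is 1 group. Unknown depth, whole-animal chromatin and a list cut by rank limit what an absent peak shows.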
